A study of Mus musculus with 2 samples.

Results

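Slc16a3, Slc16a1, Slc2a1, Slc2a3 and Ldha, 5 genes of lactate and glucose handling, were followed among the 32285 genes listed for 2 single-cell RNA-seq (scRNA-seq) libraries of donor T cells. The genes were chosen by name with their day +14 over day +7 values in these libraries known, so the day ratios below are a description. In the allogeneic hematopoietic cell transplantation model (allo-HCT), lethally irradiated BALB/c recipients received T cell–depleted bone marrow and purified splenic T cells from wild-type C57BL/6 donors, and the donor T cells attacked the recipient as in acute graft-versus-host disease (aGvHD). CD45+ H2Kb+ H2Kd- TCRβ+ cells, which carry the MHC class I of the donor and a T cell receptor, were sorted from recipient spleens, with 1 library at day +7 and 1 at day +14. Cells were pooled from 5 spleens, so single mice cannot be told apart, and the library names carry PBS at either day. The growth protocol in the labels speaks of a day +7 sort for either sample, so titles were used to assign the days. The comparison of the days addresses how donor T cells change their metabolism as aGvHD goes on.

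T cells that divide take up much glucose and turn part of the pyruvate made from it into lactate. Slc2a1 (GLUT1) and Slc2a3 (GLUT3) are glucose carriers of the plasma membrane, and Slc2a1 is known to be needed for the growth of effector T cells. Ldha is the subunit of lactate dehydrogenase that favors the step from pyruvate to lactate. Slc16a3 (MCT4) is a carrier suited to lactate export from glycolytic cells, and Slc16a1 (MCT1) moves lactate and pyruvate in either direction. Slc16a3, Slc2a1 and Ldha are known targets of the hypoxia-inducible factor HIF-1, and Slc2a1, Slc16a1 and Ldha are known targets of Myc.

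The promoters are shown because HIF-1 and Myc are known to act on most of these genes, whose day ratios are given below. RefSeq start-site windows (GRCm38.p6, 250 bases before to 50 bases after the start, plus strand) were at hand for 4 of the 5 genes, and Slc2a3 was not among them. Capitals mark the HIF core letters ACGTG or GCGTG on either strand. The windows are Slc16a3 at chr11:120948817-120949116, Slc2a1 at chr4:119108495-119108794, Ldha at chr7:46845554-46845853 and Slc16a1 at chr3:104638414-104638713.
Slc16a3: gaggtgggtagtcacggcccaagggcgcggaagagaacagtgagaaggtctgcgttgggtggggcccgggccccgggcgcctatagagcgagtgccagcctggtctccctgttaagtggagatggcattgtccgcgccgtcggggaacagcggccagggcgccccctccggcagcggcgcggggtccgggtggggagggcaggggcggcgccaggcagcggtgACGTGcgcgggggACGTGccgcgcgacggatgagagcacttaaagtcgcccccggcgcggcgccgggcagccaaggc
Slc2a1: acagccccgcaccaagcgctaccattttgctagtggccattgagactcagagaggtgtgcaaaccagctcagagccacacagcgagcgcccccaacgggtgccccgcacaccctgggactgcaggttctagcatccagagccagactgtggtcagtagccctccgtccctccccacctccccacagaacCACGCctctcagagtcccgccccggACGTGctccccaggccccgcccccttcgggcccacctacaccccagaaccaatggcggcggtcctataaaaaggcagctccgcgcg
Ldha: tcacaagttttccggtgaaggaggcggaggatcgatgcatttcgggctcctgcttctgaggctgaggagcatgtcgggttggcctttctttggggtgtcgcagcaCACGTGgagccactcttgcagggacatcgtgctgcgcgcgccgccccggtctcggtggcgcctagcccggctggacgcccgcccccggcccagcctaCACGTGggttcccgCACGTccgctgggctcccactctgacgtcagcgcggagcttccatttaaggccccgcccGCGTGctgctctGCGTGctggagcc
Slc16a1: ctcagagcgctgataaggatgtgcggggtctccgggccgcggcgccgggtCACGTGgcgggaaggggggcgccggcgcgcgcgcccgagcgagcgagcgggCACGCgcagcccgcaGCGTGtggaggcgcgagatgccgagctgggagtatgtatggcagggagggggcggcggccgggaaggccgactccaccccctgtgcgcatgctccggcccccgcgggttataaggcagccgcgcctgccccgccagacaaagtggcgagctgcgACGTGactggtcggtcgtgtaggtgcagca
The letters were present 2 times in Slc16a3, beginning 27 and 14 bases before the start, 2 times in Slc2a1, 7 times in Ldha and 5 times in Slc16a1. A second start of Ldha, at chr7:46846832-46847131, held 2. Of all 32851 windows in the table, 43.8% held at least 1 match and 8.93% held 3 or more, so a match in a window is common. CACGTG, the E-box read by Myc, holds an ACGTG on each strand and was counted as 2 of these matches. It was found 2 times in the first Ldha window, 1 time in that of Slc16a1 and in 7.15% of all windows. In the GENCODE M21 annotation of GRCm38, the build that matches the mm10 of the labels, the genes span chr11:120948480-120960868 (Slc16a3, ENSMUSG00000025161), chr3:104638668-104658462 (Slc16a1, ENSMUSG00000032902), chr4:119108711-119137983 (Slc2a1, ENSMUSG00000028645), chr6:122727809-122801640 (Slc2a3, ENSMUSG00000003153, minus strand) and chr7:46841475-46855627 (Ldha, ENSMUSG00000063229).

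The day +7 library held 7355 barcodes and the day +14 library 8043, of which 7179 and 7794 had 500 to 7500 genes and at most 15% mitochondrial UMIs (unique molecular identifiers, 1 for each captured RNA molecule). A T gate took barcodes with at least 3 UMIs of 6 T cell receptor and CD3 genes and no list of granulocyte, macrophage, erythroid or B or plasma cell genes above them. It held 6954 cells at day +7, or 96.9% of those kept, and 7612 at day +14, or 97.7%, with median depths of 9176 and 8198.5 UMIs, and 20 deposited barcodes occurred in both libraries. CD8 cells (5976 at day +7 and 5986 at day +14) had a Cd8a or Cd8b1 UMI and no Cd4 UMI, CD4 cells (457 and 695) the reverse, and Foxp3+ cells (45 and 42) a Foxp3 UMI and no more CD8 than Cd4 UMIs. The Foxp3+ gate thus leaves out some cells with a Foxp3 UMI. CD8 cells held 365 and 72 Foxp3 UMIs at day +7 and day +14, against 111 and 97 in Foxp3+ cells. Foxp3+ cells carried the other regulatory T cell markers: Ikzf2 was at 544 and 1053 CPM (the UMIs of a gene divided by all UMIs of the same cells and scaled to a common total) against 29.0 and 59.4 CPM in CD4 cells, and Il2ra at 236 and 174 against 52.7 and 21.4 CPM. Cells with at least 10 UMIs of 20 cell cycle genes per 10000 were called cycling, 57.9% of the T gate at day +7 and 60.2% at day +14, and 22.9% and 22.8% of cells lay between 5 and 20. Summed granulocyte markers in the T gate were at 43.2 and 44.2 CPM, macrophage markers at 26.5 and 22.3 CPM, erythroid markers at 14.3 and 18.6 CPM, B or plasma cell markers at 20.6 and 3.23 CPM and the NK cell genes Ncr1 and Klrb1c at 7.09 and 0.728 CPM, and 1 B or plasma cell gene was at 0 at day +7. Leaving out T-gated barcodes with over 10 UMIs of any of the first 4 lists gave log2 day ratios of 2.48 for Slc16a3, 1.26 for Slc2a1, 0.73 for Ldha, 0.44 for Slc2a3 and -0.04 for Slc16a1. That cut does not reach markers spread over cells at 10 UMIs or fewer. Their part in the day ratios, and that of the NK cell genes, was not tested. With 1 library per day there are no replicates, and no test was made. The 95% intervals in brackets, exact Poisson for CPM, exact conditional binomial for log2 ratios and Clopper-Pearson for shares, cover counting error only, not differences between mice or library preparations.

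The lactate carriers diverged between the days. Slc16a3 was at 9.14 CPM [8.50, 9.82] in the T gate at day +7, from 749 UMIs in 630 cells, and at 50.5 CPM [48.9, 52.0] at day +14, from 4156 UMIs in 2280 cells. The log2 ratio of day +14 over day +7 was 2.46 [2.35, 2.58], a fold of 5.52. Slc16a1 had 13.9 CPM [13.1, 14.7] at day +7 against 13.6 [12.8, 14.5] at day +14, which gave a log2 ratio of -0.03 [-0.15, 0.09]. The interval of Slc16a3 lay above 0 and that of Slc16a1 included it. Among the UMIs of the pair, Slc16a3 made up 39.7% [37.5, 42.0] at day +7 and 78.7% [77.6, 79.8] at day +14. Capture can differ between genes, and which end of the transcript was counted is not given in the sources used here, so such a share is read only for its change between the days.

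The glucose carriers were both higher at day +14, by different amounts. Slc2a1 went from 11.6 CPM [10.9, 12.4] at day +7, with 952 UMIs, to 27.6 [26.5, 28.7] at day +14, with 2272 UMIs. This is a fold of 2.37, or 1.25 [1.14, 1.36] on the log2 scale. For Slc2a3 the level was 33.6 CPM [32.4, 34.9], then 45.9 [44.4, 47.4], a fold of 1.36 or a log2 ratio of 0.45 [0.38, 0.52]. The intervals of the 2 log2 ratios did not overlap. Slc2a1 made up 25.7% [24.3, 27.1] of the UMIs of this pair at day +7 and 37.6% [36.3, 38.8] at day +14.

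The transcript of the lactate-forming enzyme was also more frequent at the later time. Ldha had 54024 UMIs at day +7, or 659 CPM [654, 665], and 89567 at day +14, or 1087 [1080.2, 1094]. Its log2 ratio of 0.72 [0.71, 0.74], a fold of 1.65, lay between those of Slc2a1 and Slc2a3.

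The ratios were read against all genes, because the median log2 ratio was 0.20 and not 0 over the 6873 genes whose T gate level averaged 10 CPM or more. Above that median, the log2 ratio was 2.27 for Slc16a3, 1.05 for Slc2a1, 0.53 for Ldha and 0.25 for Slc2a3, and Slc16a1 was at -0.22. Slc16a3 had the 14th highest ratio of all genes, Slc2a1 was at place 86, Ldha at 380, Slc2a3 at 1357 and Slc16a1 at 5302. A fold of 2 or more upward was reached by Slc16a3 and Slc2a1, 2 of the 5, against 2.12% of all genes, and the same fold downward was reached by none of the 5, against 1.38% of all genes. Since the genes were chosen with these ratios known, nothing is read from that count. If libraries are instead scaled to the median gene, taken over 10155 genes that had 100 UMIs or more in each, every T gate log2 ratio is lower by 0.23. With it, genes past the fold of 2 changed from 146 higher and 95 lower to 92 higher and 141 lower, and Slc2a1 stayed above that fold by little, at 1.02.

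**Figure D1:**
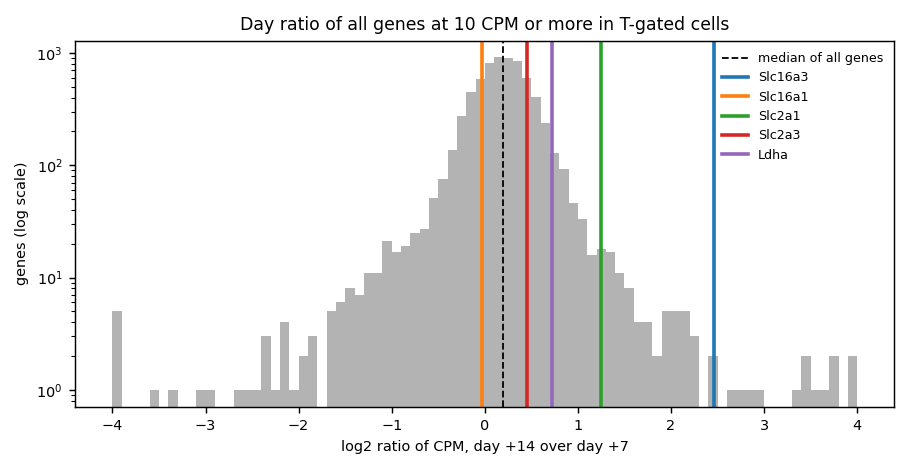
Histogram of the log2 ratio of CPM, day +14 over day +7 (x axis), for 6873 genes that averaged 10 CPM or more in T-gated cells, with the number of genes on a log scale (y axis). Values beyond 4 in either direction are drawn at 4. Colored lines mark the 5 genes and the dashed line the median of 0.20. Slc16a3 lies in the upper tail at 2.46 and Slc16a1 below the median at -0.03.

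Slc16a3 was higher at day +14 in cycling and non-cycling cells of either lineage. In cycling CD8 cells it was at 10.0 CPM [9.17, 10.9] and 56.1 CPM [54.1, 58.2], and in non-cycling CD8 cells at 5.39 CPM [4.36, 6.59] and 29.5 CPM [26.5, 32.6], at day +7 and day +14. In cycling CD4 cells it was at 9.25 CPM [6.04, 13.6] and 51.0 CPM [42.9, 60.2], and in non-cycling CD4 cells at 5.87 CPM [2.93, 10.5] and 38.6 CPM [30.9, 47.6]. Log2 ratios ran from 2.45 in non-cycling CD8 cells to 2.72 [1.81, 3.77] in non-cycling CD4 cells, where the day +7 level rests on 11 UMIs. The log2 ratio was 2.53 in all CD8 and 2.52 in all CD4 cells, with a difference of 0.00 [-0.51, 0.52], an approximate interval from the 4 counts. Summed markers of granulocytes, which carry Slc16a3 themselves, were at 23.5 CPM in non-cycling CD4 cells at day +7 and 78.1 CPM at day +14, against 209905 and 245153 CPM in granulocyte-gated barcodes. Across 5 bins of CD8 cells by cell cycle UMIs the ratio ran from 2.25 to 2.97, and across 4 bins of T-gated cells by depth from 2.34 to 2.97, so cells of like cycling score or like depth showed it too.

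**Figure D2:**
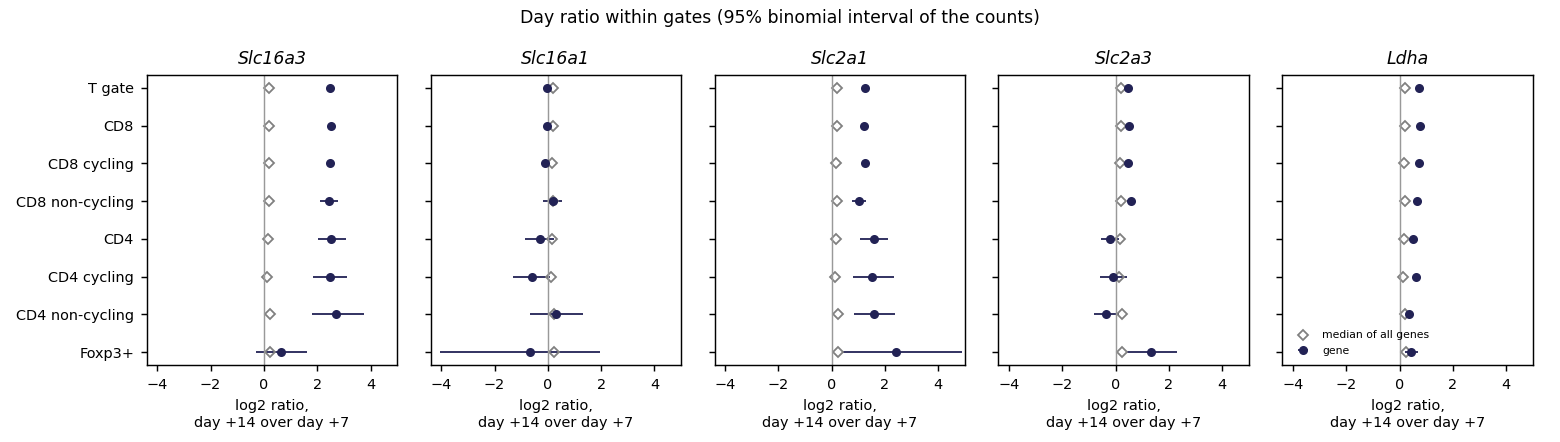
Log2 ratio of CPM, day +14 over day +7 (x axis), for each of the 5 genes in the T gate and in gates within it (y axis). Filled points carry 95% binomial intervals of the counts, and open diamonds give the median of all genes in the gate. Slc16a3 lies between 2.45 and 2.72 in the CD8 and CD4 gates and at 0.66 in Foxp3+ cells, whereas Slc2a3 lies above 0 in CD8 and below 0 in CD4 cells.

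Foxp3+ cells were apart from the other gates in Slc16a3 at day +7. They held 20 UMIs in 11 of 45 cells, 45.9 CPM [28.0, 70.9], when CD4 cells without a Foxp3 UMI held 37 UMIs in 34 of 457 cells, 7.90 CPM [5.56, 10.9]. A single Foxp3+ cell held 7 of the 20 UMIs. The log2 ratio of Foxp3+ over CD4 cells was 2.54 [1.68, 3.36] at day +7 and 2.85 [1.88, 3.75] for the 26 cells with at least 2 Foxp3 UMIs, a cut added after seeing the data. The stricter cut rests on 15 Slc16a3 UMIs in 6 cells at day +7 and 19 in 9 cells at day +14. The intervals treat UMIs of the same cell as independent. At day +14 the level was 72.4 CPM [44.2, 112] in Foxp3+ and 45.4 [39.7, 51.7] in CD4 cells, 0.67 [-0.07, 1.33] apart on the log2 scale, and 1.20 [0.44, 1.88] with the stricter Foxp3 cut. The day ratio within Foxp3+ cells was 0.66 [-0.31, 1.63], an interval that includes 0, and that of CD4 cells exceeded it by 1.87 [0.84, 2.89], again approximate. At 4000 UMIs per cell the share with a Slc16a3 UMI at day +7 was 13.6% [5.17, 27.4] in 44 Foxp3+ cells and 2.48% [1.24, 4.39] in 444 CD4 cells, and these intervals do not overlap. Slc2a3 in Foxp3+ cells was at 39.0 CPM [22.7, 62.5] and 97.7 CPM [64.4, 142], from 17 and 27 UMIs, and Slc2a1 at 6.89 CPM [1.42, 20.1] and 36.2 CPM [17.3, 66.5], from 3 and 10 UMIs, of which a single cell held 7 at day +14. Slc16a1 had 5 and 2 UMIs there, too few to compare the days.

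Slc2a1 was higher at day +14 in all 4 gates of CD8 and CD4 cells. It was at 11.8 and 28.1 CPM in cycling CD8 cells (log2 1.25 [1.12, 1.39]), at 11.8 and 23.9 CPM in non-cycling CD8 cells (1.02 [0.76, 1.28]), at 7.47 and 21.5 CPM in cycling CD4 cells (1.53 [0.79, 2.32]) and at 10.7 and 32.0 CPM in non-cycling CD4 cells (1.58 [0.85, 2.38]). CD8 and CD4 cells differed in this ratio by -0.37 [-0.89, 0.15], an interval that includes 0. At a fold of 2 or more upward, Slc16a3 and Slc2a1 were counted in each of these gates, beside 1.85% of all genes in cycling CD8, 4.46% in non-cycling CD8, 3.33% in cycling CD4 and 8.96% in non-cycling CD4 cells. Under median-ratio scaling Slc2a1 in non-cycling CD8 cells was at 0.81 on the log2 scale and no longer past the fold, and in all CD8 cells at 0.99. In Foxp3+ cells 2 of the 4 genes at 10 CPM or more, Slc2a1 and Slc2a3, passed the fold, but so did 16.2% of all genes there, as the counts are small.

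Slc2a3 was higher in CD8 than in CD4 cells at day +14. CD8 cells had 33.9 CPM [32.6, 35.3] and CD4 cells 32.9 [27.9, 38.5] at day +7, 0.04 [-0.19, 0.29] apart on the log2 scale. The day +14 levels were 47.4 CPM [45.8, 49.1] and 28.6 [24.1, 33.7], with a log2 ratio of CD8 over CD4 of 0.73 [0.49, 0.98]. Among cycling cells alone CD8 were already the higher at day +7, by 0.38 [0.03, 0.74], and the day +14 value was 0.94 [0.58, 1.32]. The day ratio was 0.48 [0.41, 0.56] in CD8 cells and -0.20 [-0.54, 0.14] in CD4 cells, and these differed by 0.68 [0.35, 1.02]. The day ratio was also the higher in CD8 among cycling cells, with a difference of 0.57 [0.07, 1.06], and in non-cycling cells, with 0.94 [0.47, 1.41]. CD8 and CD4 cells had different median depths at day +14, 8624 and 5325 UMIs, and with cells thinned to 4000 UMIs each the day +14 log2 ratio was 0.63. Slc2a1 made up 21.0% [15.5, 27.4] of the UMIs of the 2 glucose carriers in CD4 cells at day +7 and 47.8% [41.8, 53.9] at day +14, and 25.8% [24.3, 27.3] and 36.5% [35.2, 37.9] in CD8 cells.

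The intervals of the Slc16a1 day ratio included 0 in the 4 gates of CD8 and CD4 cells. It was at 15.8 and 14.8 CPM in cycling CD8 cells (log2 -0.10 [-0.24, 0.04]), at 8.23 and 9.29 CPM in non-cycling CD8 cells (0.18 [-0.19, 0.54]), at 17.1 and 11.3 CPM in cycling CD4 cells (-0.60 [-1.30, 0.09]) and at 8.54 and 10.7 CPM in non-cycling CD4 cells (0.32 [-0.65, 1.33]). Under median-ratio scaling the value in non-cycling CD8 cells changes sign, to -0.04, and those in cycling CD8 cells, at -0.29, and in the T gate, at -0.26, lie below the intervals given. Over all kept cells, erythroid-gated barcodes included, the log2 ratio was -0.13 [-0.25, -0.02]. Ldha was higher at day +14 in each gate, from 735 to 1205 CPM in cycling CD8 cells, from 402 to 631 CPM in non-cycling CD8 cells, from 802 to 1226 CPM in cycling CD4 cells and from 535 to 687 CPM in non-cycling CD4 cells. Its log2 ratio was 0.75 [0.73, 0.77] in CD8 and 0.50 [0.44, 0.56] in CD4 cells, a difference of 0.25 [0.18, 0.32]. The difference was 0.10 [0.02, 0.18] among cycling cells and 0.29 [0.17, 0.42] among non-cycling cells. Cycling cells were 203 of 457 CD4 cells at day +7 and 235 of 695 at day +14. Among CD8 cells they were 3572 of 5976 and 3855 of 5986, so the pooled ratios also hold this change in mix.

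**Figure D3:**
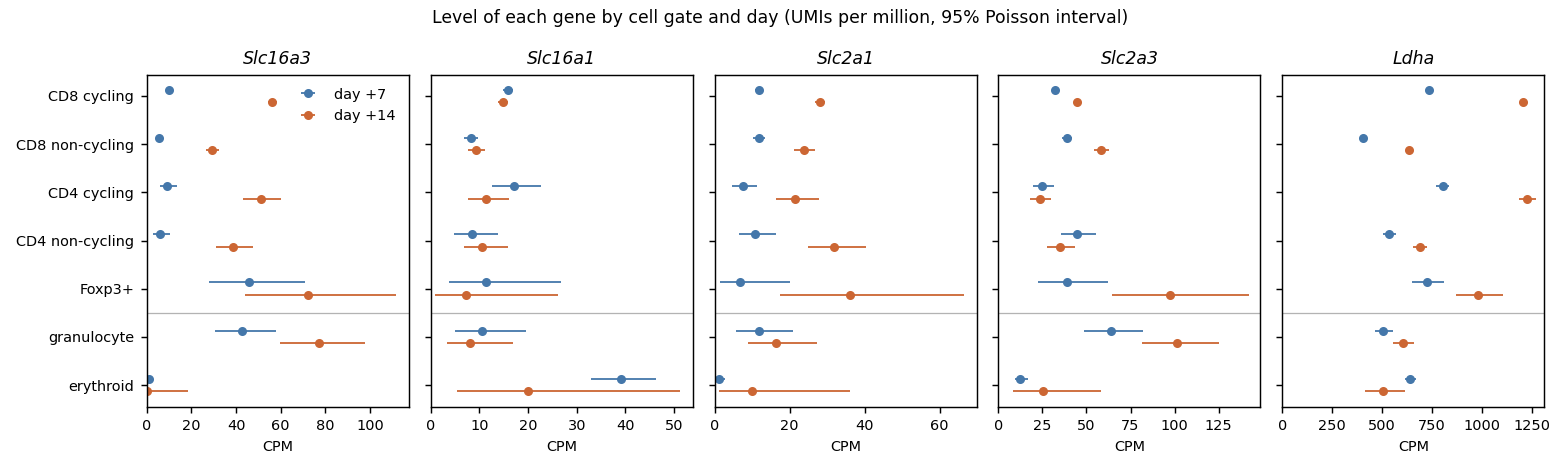
CPM (x axis) of each of the 5 genes in 5 T cell gates and, under the line, in granulocyte-gated and erythroid-gated barcodes (y axis), at day +7 (blue) and day +14 (orange), with 95% Poisson intervals. Slc16a3 in Foxp3+ cells was at 45.9 CPM at day +7, above the 4 other T cell gates at that day, and Slc16a1 at day +7 was highest in erythroid-gated barcodes, at 39.2 CPM.

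Within CD8 cells, the CPM of Ldha and both lactate carriers was higher in cycling than in non-cycling cells, and that of Slc2a3 was lower. Cycling over non-cycling CD8 cells gave log2 ratios of 0.89 [0.57, 1.22] and 0.93 [0.77, 1.09] for Slc16a3 at day +7 and day +14, of 0.94 [0.69, 1.21] and 0.67 [0.39, 0.96] for Slc16a1, and of 0.87 [0.83, 0.91] and 0.93 [0.90, 0.97] for Ldha. The ratio of Slc2a1 was 0.01 [-0.22, 0.24] at day +7 and 0.24 [0.06, 0.42] at day +14. Slc2a3 was lower in cycling cells, at -0.26 [-0.39, -0.13] and -0.38 [-0.50, -0.26]. The medians of all genes were 0.05 and 0.01 for the same contrast. In CD4 cells Slc2a3 was likewise lower in cycling cells, at -0.85 [-1.33, -0.37] and -0.59 [-1.09, -0.09], and Ldha higher, at 0.58 [0.48, 0.69] and 0.83 [0.75, 0.92]. Slc16a3 gave 0.66 [-0.41, 1.82] and 0.40 [0.01, 0.80] there, and Slc2a1 -0.52 [-1.47, 0.44] and -0.57 [-1.09, -0.06]. Slc16a1 gave 1.00 [0.16, 1.91] at day +7 and 0.08 [-0.73, 0.92] at day +14, an interval that includes 0. Cycling CD8 cells were also deeper, with medians of 12668 and 11715 UMIs against 6711 and 5305 in non-cycling cells, and the part of depth in these ratios was tested only through the shares at equal depth. At 4000 UMIs per cell, Slc16a1 was found in 6.20% [5.43, 7.05] of cycling and 2.88% [2.24, 3.64] of non-cycling CD8 cells at day +7, and Slc2a3 in 11.8% [10.7, 12.9] and 13.7% [12.3, 15.1]. The Slc2a3 intervals overlap. Slc16a3 was found in 3.89% [3.28, 4.58] of the cycling cells at day +7. Of the non-cycling cells, 2267 held no Slc16a3 UMI, 60 held 1 and 1 held 2 or more. In T-gated cells at day +7, Slc16a3 was at 3.46 CPM below 5000 UMIs and 11.7 CPM from 20000 UMIs. Cells with at least 3 UMIs of the early genes Nr4a1, Nr4a3, Egr1 and Egr2 per 10000, a sign of recent receptor stimulation, numbered 213 among CD8 cells at day +14. Slc16a3 was at 61.9 CPM in these and 50.7 CPM in the other CD8 cells, a log2 ratio of 0.29 [0.01, 0.55], and among non-cycling cells, where 113 had such UMIs, at 25.2 and 29.7 CPM. At day +7 only 67 CD8 cells had such UMIs, with 4 Slc16a3 UMIs, or 6.55 CPM against 8.87 CPM in the others, a log2 ratio of -0.44 [-2.32, 0.93].

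To see whether more cells or more UMIs per cell carried the differences, all T-gated cells with at least 4000 UMIs were thinned to that number, which left out 137 cells at day +7 and 880 at day +14. Slc16a3 was found in 3.36% [2.94, 3.81] of 6817 cells at day +7 and 14.9% [14.0, 15.8] of 6732 cells at day +14, and in 9.06% and 30.0% without thinning. The variance of its UMIs over cells divided by the mean was 0.99 at day +7, near the value of 1 that random sampling of equal cells gives, and 1.23 at day +14. Slc2a1 was found in 4.50% [4.02, 5.02] and 9.49% [8.80, 10.2] of cells, Slc2a3 in 12.6% [11.8, 13.4] and 16.3% [15.4, 17.2], and Slc16a1 in 4.83% [4.33, 5.36] and 4.60% [4.12, 5.13]. Without thinning these shares were 12.1% and 22.1%, 29.2% and 32.8%, and 13.6% and 12.2%. Ldha was found in 82.4% [81.5, 83.3] and 92.0% [91.3, 92.6] of cells, with a variance over the mean of 1.60 and 2.03.

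Free RNA in the suspension gives some UMIs to cells that do not make them, so the shares were set beside erythroid-gated barcodes, precursors of red cells. At day +7, 102 of these with at least 4000 UMIs, out of 124 with a median depth of 32599, held Slc16a3 in 0.98% [0.02, 5.34], Slc2a1 in 0.98%, Slc2a3 in 3.92% [1.08, 9.74] and Slc16a1 in 9.80% [4.80, 17.3]. Unthinned, Slc16a3 was at 1.11 CPM [0.30, 2.85] there, from 4 UMIs, against 9.14 CPM in the T gate. Slc2a1 was also at 1.11 CPM [0.30, 2.85] there, from 4 UMIs in 2 barcodes, against 11.6 CPM. The log2 ratios of erythroid-gated over T-gated cells were -3.04 [-4.92, -1.68] for Slc16a3 and -3.39 [-5.26, -2.02] for Slc2a1. Slc16a1 was at 39.2 CPM [33.0, 46.2] in the same barcodes, a log2 ratio over the T gate of 1.50 [1.23, 1.75], and Ldha at 640 CPM [614, 667], near its T gate level. At day +14, Slc16a3 had 0 UMIs in the 28 erythroid-gated barcodes, a level with an upper bound of 18.5 CPM, and only 13 of these reached 4000 UMIs. The day +7 share of T-gated cells with Slc2a3 lay above the erythroid interval. Those with Slc16a3 and Slc2a1 lay within it, so by share alone these could not be told from free RNA at day +7. In unthinned CPM, Slc16a3 and Slc2a1 were lower in the erythroid-gated barcodes than in the T gate, as given above. The day +7 shares with Slc16a1 and with Ldha, which was found in 88.2% [80.4, 93.8] of the erythroid-gated barcodes, were below the erythroid values but within their intervals. With 39.2 CPM of Slc16a1 and 640 CPM of Ldha there, these erythroid shares need not come from free RNA. The erythroid-gated barcodes were deeper before thinning than T-gated cells, and a fixed amount of free RNA per droplet would be thinned more in them. Granulocyte-gated barcodes held Slc16a1 in 2.33% [0.06, 12.3] of 43 and 3.39% [0.41, 11.7] of 59, intervals that include the T gate shares.

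**Figure D4:**
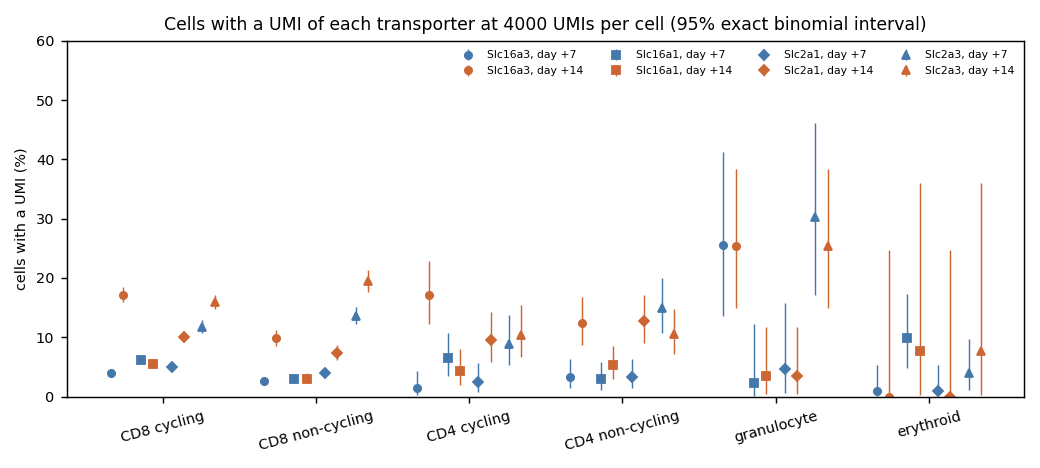
Percent of cells with at least 1 UMI (y axis) of Slc16a3, Slc16a1, Slc2a1 and Slc2a3 after each cell was thinned to 4000 UMIs, in CD8 and CD4 gates and in granulocyte-gated and erythroid-gated barcodes (x axis), at day +7 (blue) and day +14 (orange), with 95% exact binomial intervals. In cycling CD8 cells the share with Slc16a3 was 3.89% at day +7 and 17.2% at day +14.

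Slc16a3 was also read in barcodes outside the T gate. Those gated as granulocytes held the T cell receptor and CD3 genes too, at 1427 and 2208 CPM at day +7 and day +14. The T gate had 5984 and 7619 CPM of these genes. The part of T cell RNA in the granulocyte-gated levels was not tested. Granulocyte-gated barcodes, 47 at day +7 and 84 at day +14, were at 42.6 CPM [30.4, 58.0] and 77.0 CPM [59.5, 97.9] for Slc16a3, and at 63.9 CPM [48.8, 82.3] and 101 CPM [81.3, 125] for Slc2a3. The log2 ratio of granulocyte-gated over T-gated cells for Slc16a3 was 2.22 [1.72, 2.68] at day +7 and 0.61 [0.24, 0.96] at day +14. Macrophage-gated barcodes, 40 and 33 in number, held 1 Slc16a3 UMI at day +7 and 17 at day +14, in 7 barcodes. The Slc16a3 level of T-gated cells was thus nearer to that of granulocyte-gated barcodes at day +14.

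Within CD8 cells of 1 library and 1 cycling class, the other glycolytic transcripts were counted by the number of Slc16a3 UMIs at 4000 UMIs per cell. In cycling cells at day +14, Ldha was at 4.09 UMIs per cell [4.02, 4.16] in the 3107 cells without a Slc16a3 UMI, 5.16 [4.97, 5.36] in the 535 with 1 and 6.53 [6.06, 7.02] in the 110 with 2 or more. The 20 glycolytic enzyme genes summed to 22.2, 28.0 and 36.9 UMIs per cell in the same order, and 16 hypoxia response genes outside glycolysis to 3.02, 3.70 and 5.33. Slc2a1 was at 0.098, 0.129 and 0.245 UMIs per cell. The T cell receptor and CD3 genes, at 30.8, 30.8 and 28.9, and the cell cycle genes, at 18.6, 17.8 and 18.1, showed no such order. Non-cycling cells at day +14 had the same order for Ldha, with 2.27 in 1582 cells, 3.45 in 155 and 4.59 in 17. At day +7, Ldha was at 2.54 [2.48, 2.59] in 3409 cycling cells without a Slc16a3 UMI and 2.73 [2.46, 3.02] in 136 with 1, overlapping intervals, and only 2 cells held 2 or more. The glycolytic sum in the same cells was 15.5 [15.3, 15.6] and 17.8 [17.1, 18.5], which did not overlap. In non-cycling cells at day +7, Ldha was at 1.53 [1.48, 1.58] in 2267 cells and 2.03 [1.69, 2.43] in 60, and the glycolytic sum at 11.4 and 15.7, again without overlap of the intervals. All of these intervals treat UMIs of the same cell as independent. Ldha had a variance over the mean of 1.60 and 2.03 in thinned T-gated cells at day +7 and day +14. The intervals are thus too narrow for the spread between cells, and their overlap or lack of it decides nothing. Cells of 1 library share their source, so this is a description of these libraries. Thinning does not make equal the depth that cells had before it. In T-gated cells at day +14, Slc16a3 was at 27.1 CPM below 5000 UMIs and 59.0 CPM from 20000 UMIs. Ldha was at 522 and 1428 CPM in the same bins. The part of original depth in the order by Slc16a3 UMIs was not tested.

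**Figure D5:**
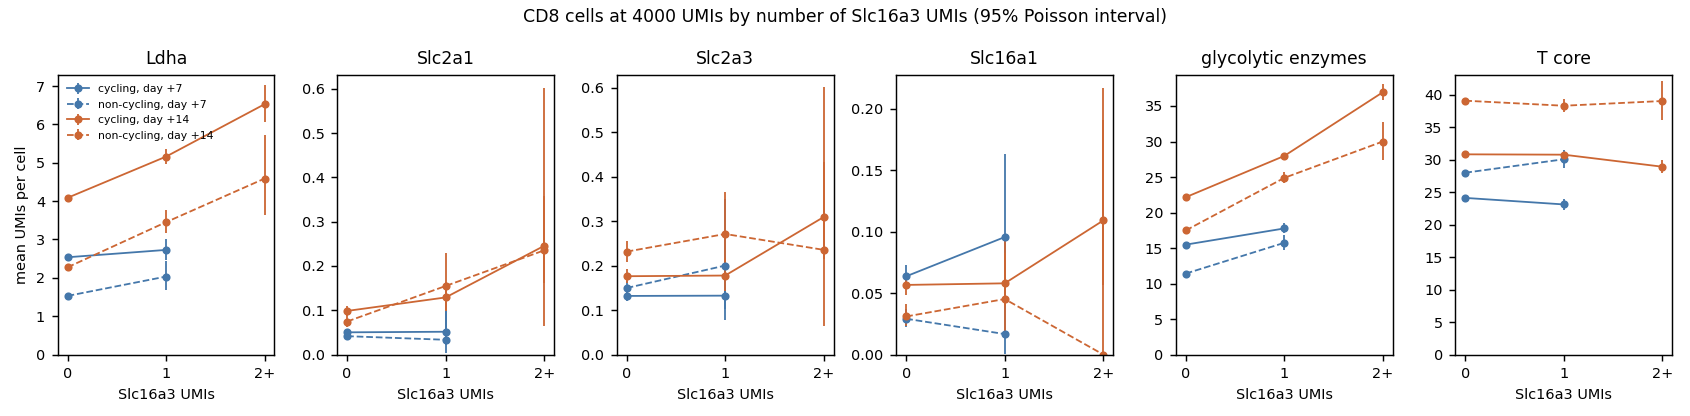
Mean UMIs per cell (y axis) of Ldha, Slc2a1, Slc2a3, Slc16a1, 20 glycolytic enzyme genes and 6 T cell receptor and CD3 genes (T core) in CD8 cells thinned to 4000 UMIs, by the number of Slc16a3 UMIs in the cell (x axis), at day +7 (blue) and day +14 (orange), with cycling cells as solid and non-cycling cells as dashed lines. Points over fewer than 10 cells are left out, and bars are 95% Poisson intervals. At day +14 Ldha runs from 4.09 to 6.53 UMIs in cycling cells, while T core does not rise along the axis.

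The transcripts of the partner proteins of the carriers differed little between the days in the T gate. Bsg (basigin), which carries MCT1 and MCT4 to the membrane, was at 256 and 250 CPM in the T gate (log2 -0.03 [-0.06, 0.00]), and Emb (embigin), another such partner, at 147 and 137 CPM (-0.10 [-0.13, -0.06]). In Foxp3+ cells Bsg was at 211 and 304 CPM (0.53 [0.08, 0.97]), where the median of all genes was 0.24. Of 16 other genes of monocarboxylate transport, these partners included, 3 reached 10 CPM and none passed a fold of 2, which 2.12% of all genes passed upward and 1.38% downward, with a median log2 ratio of -0.03 against 0.20 for all genes. From so few genes nothing is read. Of 14 other hexose carriers none reached a mean of 10 CPM over the 2 days, which is the floor used for all of these lists. Slc2a8 was at 10.2 and 7.19 CPM and Slc2a6 at 0.415 and 1.19 CPM.

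Among 17 genes that act on lactate and pyruvate, 8 reached 10 CPM, with a median log2 ratio of 0.18, and 1 passed the fold upward, against 2.12% of all genes. This was Pdk1, a kinase that turns off pyruvate dehydrogenase, at 7.72 and 20.9 CPM (log2 1.43 [1.30, 1.57]). Mpc1 and Mpc2, which form the mitochondrial pyruvate carrier, were lower at day +14, from 140 to 124 CPM and from 137 to 104 CPM, log2 ratios of -0.18 and -0.41. Ldhb, the other main subunit of lactate dehydrogenase, had 93 and 391 UMIs, or 1.13 and 4.75 CPM. Of 20 glycolytic enzyme genes 14 reached 10 CPM and 3 passed the fold upward, Pfkl at 21.3 and 43.1 CPM, Tpi1 at 211 and 534 CPM and Eno3 at 10.2 and 30.5 CPM, with a median of 0.78, against 2.12% and a median of 0.20 over all genes. Pfkl, at 1.02 on the log2 scale, was at 0.78 under median-ratio scaling and no longer past the fold. Hk2, the inducible hexokinase, was at 18.6 and 21.3 CPM (log2 0.20 [0.10, 0.30]), the median of all genes. Aldoa is listed under 2 identifiers, of which the first was used here, whereas the glycolytic sums per cell above hold both.

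Of 22 regulators of glucose transport, 16 reached 10 CPM, 1 passed the fold upward and 1 downward, with a median of 0.26, where 2.12% of all genes passed upward and 1.38% downward. Tbc1d4, a Rab GTPase-activating protein that restrains the delivery of glucose carriers to the membrane, was at 9.86 and 37.8 CPM (log2 1.94 [1.83, 2.05]). Epas1, which encodes HIF-2α, was lower, at 29.5 and 12.3 CPM (-1.26 [-1.36, -1.15]). Hif1a was at 115 and 162 CPM and Myc at 13.2 and 22.6 CPM, log2 ratios of 0.50 and 0.78. Myc was higher at day +14 in cycling CD8 cells (0.87 [0.74, 1.01]), and its ratio in cycling CD4 cells was 0.03 [-0.62, 0.69]. Txnip, which removes GLUT1 from the membrane, was at 105 and 87.6 CPM in the T gate (-0.27 [-0.31, -0.22]), with -0.23 [-0.31, -0.14] in non-cycling CD8 and 0.44 [0.24, 0.64] in non-cycling CD4 cells. Of 16 hypoxia response genes outside glycolysis 11 reached 10 CPM and 2 passed the fold, Ankrd37 at 15.1 and 38.5 CPM and P4ha1 at 5.95 and 18.9 CPM, against 2.12% of all genes, with a median of 0.39. Under median-ratio scaling Ndrg1, named for this alone, passed the fold downward, from -0.88 to -1.11 on the log2 scale. These lists were chosen with earlier results of these data known, and no list was tested.

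Likeness of pattern was measured as Pearson's r of log2(CPM + 1) over 10 values, the 5 T cell gates on each day, which share libraries and differ in depth. The 5 genes most like Slc16a3 were Dele1 (0.96), Tubgcp4, Cnot7, Ppp2r2a and Morf4l1 (0.95), but their log2 day ratios in the T gate ran only from 0.25 to 0.57. Those most like Slc16a1 were Drosha (0.97), Rtel1, Paox, Wdr5 and Ubac1, those most like Slc2a1 were Usp47 (0.97), Dbt, BC005537, Fip1l1 and Pi4ka, those most like Slc2a3 were Vps26a (0.96), Dennd6a, Ostm1, Trpc4ap and Cysltr2, and those most like Ldha were Hnrnpdl (0.99), Numa1, Nup88, Fasn and Tfdp1. Among the 5 genes themselves, r with Slc16a3 was 0.74 for Ldha, 0.65 for Slc2a1, 0.33 for Slc2a3 and -0.07 for Slc16a1. With 10 values and 6873 genes, r of this size is a description and carries no p.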

How the data were processed

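The scRNA-seq data were 2 libraries of sorted splenic donor T cells, 1 at day +7 and 1 at day +14, made with the 10x Genomics platform. Per the labels and headers, Cell Ranger 6.1.2 and mm10 were used by the authors, who deposited raw UMI counts per gene for each barcode called a cell. The accompanying barcode and gene lists hold no measurement. Cell Ranger counts only reads assigned to 1 gene, so reads shared with near-identical copies, which Ldha is known to have, are missing from the counts.

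For each gate the UMIs of its cells were added up and scaled to their total (CPM) in Python 3.11.15 with numpy 2.4.6, scipy 1.17.1 and pandas 2.3.3, and figures were drawn with matplotlib 3.10.9. T-gated cells numbered 6954 and 7612, with 81950332 and 82372338 UMIs in all, and 3 UMIs correspond to 0.0366 and 0.0364 CPM. PCR and capture make intervals cover counting error only. The T gate left 211 and 151 barcodes as non-T and 14 and 31 undetermined. Calls of change used a fold of 2 among genes that averaged 10 CPM or more, with no test, because a day is 1 library. Thinning drew 4000 UMIs per cell without replacement with a fixed seed, and 2000 as an alternative. No doublet caller was run here. Leaving out the 6% of T-gated barcodes with most UMIs, or those with over 10 UMIs of a non-T list, stood in for it. Other alternatives were median-ratio scaling, totals without ribosomal protein and mitochondrial genes, all kept cells, other limits on mitochondrial UMIs, means over single cells, equal gate composition, other cuts for CD8, CD4 and cycling cells and other expression floors. The cut at 2 Foxp3 UMIs, the removal of barcodes found in both libraries, the bins and the thinned CD8 over CD4 ratio were added after seeing the data. The genes named were the 5 members, genes of the lists past the fold at 10 CPM, 12 more fixed by name (Bsg, Emb, Ldhb, Slc2a6, Slc2a8, Mpc1, Mpc2, Pdk1, Hk2, Hif1a, Myc and Txnip) and the 5 genes most like each member. The members and lists were chosen with earlier results of these data known. The calculations were tested on simulated data.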

Additional observations from a re-analysis of the deposited data

Results flagged for a closer look

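In 6 cases the day ratio of a gene pointed in opposite directions in 2 gates, and none of these differences was tested, since each day is 1 library. Slc2a3 had a log2 ratio of day +14 over day +7 of 0.48 in CD8 and -0.20 in CD4 cells, a difference of 0.68. The CD4 interval, [-0.54, 0.14], includes 0. Among cycling cells alone the ratios were 0.47 in CD8 and -0.09 in CD4, a difference of 0.57, and among non-cycling cells 0.59 and -0.35, a difference of 0.94. Against Foxp3+ cells, at 1.32 from 17 and 27 UMIs, CD4 cells differed by -1.52. Slc16a1 was at -0.10 in cycling and 0.18 in non-cycling CD8 cells, a difference of -0.27 with an approximate counting interval of [-0.65, 0.10]. In CD4 cells it was at -0.60 in cycling and 0.32 in non-cycling cells, a difference of -0.91 [-2.04, 0.21] that rests on 48, 31, 16 and 24 UMIs. With 1 library per group, no library could be examined for standing apart from others of its group.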

How the results depend on the processing

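No paired analysis was possible because each day is 1 library and no result comes from a test. Of the T gate log2 ratios, median-ratio scaling moved all 5 beyond their counting interval, to 2.23 for Slc16a3, 1.02 for Slc2a1, 0.49 for Ldha, 0.22 for Slc2a3 and -0.26 for Slc16a1. Only Ldha left its interval under other settings, at 0.70 as the mean over single cells, 0.76 at 4000 UMIs, 0.77 without the 6% of barcodes with most UMIs and 0.68 at equal gate composition. The other alternatives, leaving out barcodes found in both libraries included, kept each ratio inside its interval. At 2000 UMIs the share of T-gated cells with a UMI at day +7 and day +14 was 1.76% and 7.98% for Slc16a3, 2.67% and 2.28% for Slc16a1, 2.32% and 5.26% for Slc2a1, 6.88% and 8.56% for Slc2a3 and 62.3% and 75.6% for Ldha, as fewer UMIs find fewer cells. Genes at least 2-fold higher at day +14 made up 1.14% at a floor of 50 CPM and 11.9% among all genes with a UMI in both libraries, and those 2-fold lower 7.56% in the latter. Within gates, 106 of 108 other values kept their sign and 92 stayed in their interval. The exceptions in sign were Slc16a1 in non-cycling CD8 cells, from 0.18 to -0.04 under median-ratio scaling, and Slc2a3 in cycling CD4 cells, from -0.09 to 0.00 with 3 CD8 or 2 Cd4 UMIs required. Small numbers of cells limit Foxp3+ values, where a level of the 4 carriers rests on 2 to 27 UMIs.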

Other observations

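Some genes of the same pathways had low levels, below a mean of 10 CPM, and were at least 2-fold higher at day +14 in the T gate. They were chosen after their values were seen. Of those given here, only Slc16a11 and Bnip3 had a larger day ratio than Slc16a3. Slc16a11, a relative of the lactate carriers with a known tie to lipid metabolism, had 104 UMIs in 75 T-gated cells at day +7 and 1110 UMIs in 720 cells at day +14, or 1.27 and 13.5 CPM, a log2 ratio of 3.41 [3.12, 3.71]. It was at 1.31 and 24.2 CPM in non-cycling CD8 cells and at 1.28 and 11.4 CPM in cycling CD8 cells. Non-cycling CD4 cells held 5 and 32 of its UMIs and cycling CD4 cells 0 and 8. Foxp3+ cells held 0 on either day, but with 435681 and 276400 UMIs of all genes these gates are too small to read an absence. Bnip3, a mitophagy gene that HIF-1 is known to induce, had 77 and 1112 UMIs, or 0.940 and 13.5 CPM, a log2 ratio of 3.84 [3.51, 4.20].

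Ldhb, with a T gate log2 ratio of 2.06 [1.73, 2.41], was highest in non-cycling CD4 cells among the CD8 and CD4 gates. It was at 6.41 and 22.6 CPM there, from 12 and 51 UMIs, against 0.795 and 5.51 CPM in non-cycling CD8 cells. Foxp3+ cells were at 13.8 and 25.3 CPM of Ldhb, from only 6 and 7 UMIs. Aldoc, an aldolase, had 46 and 249 UMIs in the T gate, or 0.561 and 3.02 CPM, a log2 ratio of 2.43 [1.97, 2.92]. Egln3, a prolyl hydroxylase of the hypoxia response, had 83 and 375 UMIs, or 1.01 and 4.55 CPM, a log2 ratio of 2.17 [1.82, 2.53]. Slc45a4, listed with the hexose carriers, was at 4.09 and 8.56 CPM in the T gate, a log2 ratio of 1.07 [0.88, 1.26]. It was at 26.4 CPM from 95 UMIs in erythroid-gated barcodes at day +7.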
